A study of Mus musculus with 2 samples.

Results

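The cytosolic ribosomal protein genes are the set described here, measured in single CD45+ immune cells from mouse tumors. Members were taken from the gene symbols of the deposited matrices. A symbol counted when it began with Rpl or Rps and a digit, or was Rplp0, Rplp1, Rplp2, Rpsa or Fau. Of 106 symbols that matched, 8 pseudogenes with "-ps" in the name and 10 ribosomal S6 kinases were left out, which left 88 members among 31253 genes. By name, 36 were counted with the small subunit and 52 with the large subunit. Not all of them encode subunit proteins, Rps19bp1 being an exception. Rack1, which also encodes a ribosomal protein, carries another kind of name and was followed separately.

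The ribosome reads mRNA in its small subunit and joins amino acids in its large subunit. Its proteins are made in nearly equal amounts and assembled with ribosomal RNA in the nucleolus. Their mRNAs belong to the class with a 5′ terminal oligopyrimidine tract (TOP), a C at the start of the transcript followed by C and T bases, through which mTOR signaling controls their translation. Resting naive lymphocytes hold little other mRNA, and ribosomal protein mRNAs are known to be a large part of what they contain.

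The question of the study, as its title and protocols give it, was how Syndecan-1 (Sdc1, a heparan sulfate proteoglycan) in the tumor bears on the immune cells around it. Wild-type mice were first vaccinated under the skin of the left flank with irradiated B16 melanoma cells that secrete the cytokine GM-CSF. After 12 days they received B16 cells in the right flank, with a hairpin against either Sdc1 (shSdc1) or red fluorescent protein (shRFP, the control). After 16 further days, 6 tumors per group were pooled, live CD45+ cells were sorted, and 1 droplet library was made per group. The hairpin was in the injected tumor cells and not in the sorted immune cells of the hosts. The labels also call the shSdc1 library a knock out in the genotype field, while its title and protocol describe the hairpin. Both groups were vaccinated, so what the vaccine did cannot be seen here. With 1 library per group, no difference between the libraries had a replicate check: the 95% intervals below are exact and cover counting error only, and no p-value is given.

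The shRFP library held 5786 barcodes and 4255928 unique molecular identifiers (UMIs, 1 per captured mRNA molecule), and the shSdc1 library held 5902 barcodes and 4370725 UMIs. Barcodes with at least 200 genes and under 10% mitochondrial UMIs were kept, 5225 and 5576 of them, with medians of 662 and 601 UMIs per cell. Leaving out the 20 barcode sequences that occurred in both libraries left the overall ratio reported below at 1.07. After removal of 218 and 249 barcodes with the highest doublet scores, cells were clustered without ribosomal protein genes, so that the members' own levels did not place a cell in a group. Groups were named "-like" from marker lists, and clusters 3 (led by Retnla) and 12 (led by interferon-response genes) stayed unnamed. Sdc1 itself had 103 UMIs in shRFP and 85 in shSdc1, all from sorted cells, so it does not check the hairpin. Dissociation-stress genes summed to 18381 counts per 1000000 UMIs (CPM) in shRFP and 11621 in shSdc1. A gene is called higher below when its CPM was at least 25% higher, and lower when it was at least 20% lower, the same fold in each direction, with at least 50 UMIs over both groups compared. By this rule 18 of 20 stress genes were lower in shSdc1, against 11.3% of all 9298 genes tested. Proliferation genes summed to 1122 and 1832 CPM, with 15 of 16 called higher, against 28.3% of all genes. The part of either in the differences below was not tested.

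Start sites were read first, since the TOP tract is what these mRNAs are known to share. RefSeq (GRCm38.p6) start windows were found for 68 of the 88 members, with 80 starts. A C at the start base inside a run of C and T that went on for at least 5 bases occurred at 15 of the 80 starts, 18.8%, against 2.51% of 32851 starts of all genes. A run of at least 8 C or T bases within 15 bases on either side of the start occurred at 37.5% of member starts and 12.0% of all starts. The motif CTTTCC on the sense strand of the 30-base window was found at 13.8% and 1.42%. The following members are shown because the tract lies at the annotated start. Each line gives 15 bases of promoter and the first 15 bases of the first exon, 5′ to 3′, with the longest C/T run in capitals.
Fau (chr19:6057932-6057961, plus strand): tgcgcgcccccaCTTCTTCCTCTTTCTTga
Rpl15 (chr14:18270972-18271001, minus strand): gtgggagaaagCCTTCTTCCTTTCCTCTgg
Rpl35 (chr2:39005117-39005146, minus strand): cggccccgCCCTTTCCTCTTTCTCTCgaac
Rpl28 (chr7:4792950-4792979, plus strand): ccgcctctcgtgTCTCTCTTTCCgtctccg
Rpl38 (chr11:114668565-114668594, plus strand): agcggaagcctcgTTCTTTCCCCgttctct
Rplp2 (chr7:141447636-141447665, plus strand): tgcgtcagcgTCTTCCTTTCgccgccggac
Rps27 (chr3:90213634-90213663, minus strand): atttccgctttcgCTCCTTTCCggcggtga

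The next 4 are shown because the results turn on these members and no tract lies at their annotated start. Annotated starts can lie some bases from the start a cell uses, so a missing tract says only that these letters are not in this window.
Rplp0 (chr5:115559452-115559481, plus strand): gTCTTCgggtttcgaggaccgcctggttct
Rpsa (chr9:120127751-120127780, plus strand): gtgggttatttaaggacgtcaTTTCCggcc
Rps27l (chr9:66946071-66946100, plus strand): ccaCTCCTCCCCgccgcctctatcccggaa
Rpl36al (chr12:69184053-69184082, minus strand): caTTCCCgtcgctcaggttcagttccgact

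Of the 88 members, 86 had a UMI in both libraries and 84 had at least 50 UMIs in the 2 libraries together. The 4 below that minimum are near copies or retrogenes known from testis, muscle or brain: Rpl39l had 10 UMIs in shRFP and 3 in shSdc1, Rpl3l had 4 and 2, Rps23rg1 had 1 and 0, and Rpl10l had none in either. A count of 0 allows up to 3 UMIs in a library, so Rpl10l was not detectable at this depth. UMIs come from the 3′ end of a transcript, so levels are molecules and need no scaling by length. Rpl13, a large-subunit protein, was the most abundant member with 4067 CPM in shRFP and 4320 in shSdc1. Next came Rpsa, a small-subunit protein that is also known as a laminin receptor, with 3773 and 3989 CPM, and Rplp0, the base of the large subunit's stalk, with 3791 and 3506 CPM. Rps2 followed with 3633 and 3632 CPM, Rpl19 with 3024 and 3335, Fau (a ubiquitin-like protein fused to a small-subunit protein) with 3090 and 3271, and Rps3a1 with 3056 and 3213. Rps24 and Rplp1 were also among the leading 10, with 2671 and 2900, and 2434 and 2982 CPM. Together the leading 10 held 22.4% of the members' UMIs in shRFP and 22.1% in shSdc1. Rpl7l1, Rps19bp1, Rps27rt and the 4 under the minimum together held 0.181% of the members' UMIs.

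The summed share of UMIs from the 88 genes differed between the broad immune cell groups. Regulatory T-like cells, described below, lay within the range of the dendritic cells. T-like cells gave 21.7% of their UMIs to ribosomal protein mRNA in shRFP and 19.4% in shSdc1, while monocyte/macrophage-like cells gave 12.0% and 12.3%. NK-like cells, with 20.5% and 21.3%, and B/plasma-like cells, with 21.1% and 19.7%, lay near the T-like cells. Dendritic cells were between: conventional DC 1-like cells held 16.7% and 17.5%, conventional DC 2-like cells 15.2% and 16.8%, migratory DC-like cells 15.0% and 15.4%, and plasmacytoid DC-like cells 16.9% and 16.1%. Unnamed cluster 3 held 14.4% and 14.6%, and unnamed cluster 12 held 10.3% and 11.1%. Neutrophil-like cells were lowest with 9.06% and 8.61%, from 34 and 25 cells. The order of NK-like, B/plasma-like and CD8 T-like cells (21.1% and 20.2%) was not the same in the 2 libraries. The small-subunit genes gave 0.856 UMIs for each large-subunit UMI in shRFP and 0.847 in shSdc1, so the 2 subunits kept nearly the same balance in both.

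**Figure D1:**
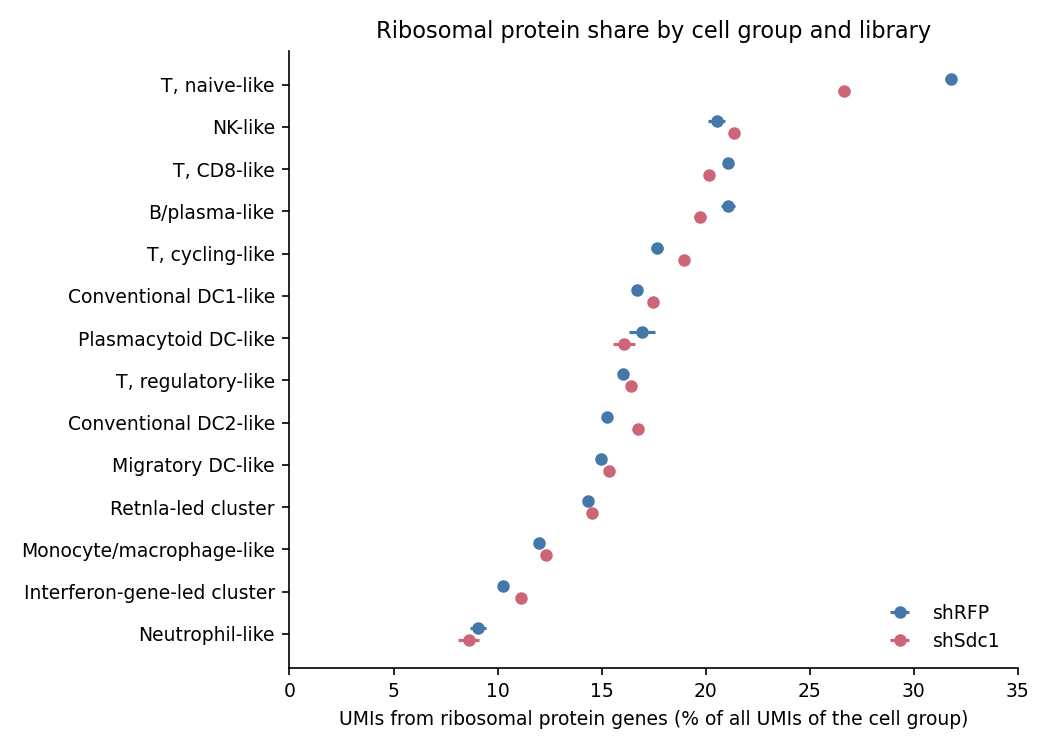
Share of UMIs from the 88 ribosomal protein genes (percent, x axis) in each cell group (rows), with 1 point per library and exact 95% binomial intervals for counting error. The T naive-like sub-cluster is highest in both libraries (31.8% in shRFP, 26.6% in shSdc1) and neutrophil-like cells are lowest (9.06% and 8.61%).

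The T-like sub-clusters differed from each other. The naive-like sub-cluster, led by Tcf7 and Lef1, held 31.8% ribosomal protein UMIs in shRFP and 26.6% in shSdc1. CD8-like cells, led by granzymes and Ccl5, held 21.1% and 20.2%. Cycling cells held 17.7% and 19.0%, and regulatory cells, led by Foxp3, held 16.0% and 16.4%, the least of these 4 named kinds. Their depth differed too: median UMIs per cell were 340 and 343 in naive-like, 504 and 521 in CD8-like, 365 and 376 in regulatory and 987 and 1191 in cycling cells. Of the 4 unnamed sub-clusters, 1 was led by complement genes of macrophages, with 10 and 8 cells, and 1 by antigen-presentation genes, with 25 and 23 cells.

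Most members moved together across cell groups. Over 32 sums (16 clusters in each library), the log2 level of each gene with at least 2000 UMIs, per UMIs outside the set, was compared with that of the 88 members summed, each member itself included. Of 81 members scored, 50 had a Pearson r over 0.9, and the median was 0.92. The points share libraries and clusters and are no independent samples. Rps10 (0.99) and Rpl39 (0.98) tracked the sum most closely. Rps27l (-0.06), Rpl36al (0.47), Rpl31 (0.56) and Rpl13a (0.67) were among those that tracked it least. Outside the set, 7 of 516 genes passed 0.9, among them the ribosomal protein Rack1 (0.98), the elongation factors Eef1a1 (0.95), Eef1b2 (0.92) and Eef2 (0.91), the nascent-chain factor Naca (0.96) and the nucleolar chaperone Npm1 (0.94). The proton-pump subunit Atp6v0c ran the other way with -0.87.

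Most ribosomal protein mRNAs took a larger share of the UMIs in T-like cells than in monocyte/macrophage-like cells. The summed share in T-like cells was 1.81 times as high in shRFP (interval 1.797 to 1.822) and 1.58 times in shSdc1 (1.57 to 1.59). Shares are not amounts per cell, which were not compared. Median UMIs per cell ran from 334 to 600 in T-like clusters and from 516 to 937 in monocyte/macrophage-like clusters. In shRFP 76 of 84 members were called higher in T-like cells, against 42.2% of all 6046 genes tested, and in shSdc1 66 of 84, against 47.7% of 6783. At 1.5-fold the counts were 68 and 42, against 31.8% and 36.1% of all genes. The members' median log2 ratio was 0.83 and 0.59, beside 0.15 and 0.27 over all genes tested. Rpsa stood furthest apart over both libraries, with 7196 CPM in T-like against 2628 in monocyte/macrophage-like cells of shRFP, and 6501 against 2261 in shSdc1, ratios of 2.74 and 2.88. The small-subunit genes Rps15a (2.81 and 2.33) and Rps7 (2.49 and 2.37), the stalk base Rplp0 (2.30 and 2.46) and the large-subunit gene Rpl13a (2.41 and 2.01) came next.

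A few members did not follow. Rps27l was lower in T-like cells in both libraries, with ratios of 0.697 and 0.580, as was Rps19bp1, a binding partner of Rps19 and not a part of the ribosome. The ribosome-assembly gene Rpl7l1 was lower in shRFP. These 3 in shRFP and 2 in shSdc1 compare with 32.3% and 29.1% of all genes called lower. Rpl36al lay near 1 in both libraries with 0.926 and 0.925. Rpl31 (1.24 and 0.896), Rps25 (1.04 and 0.841) and Rps29 (1.29 and 0.866) lay on opposite sides of 1 in the 2 libraries.

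**Figure D2:**
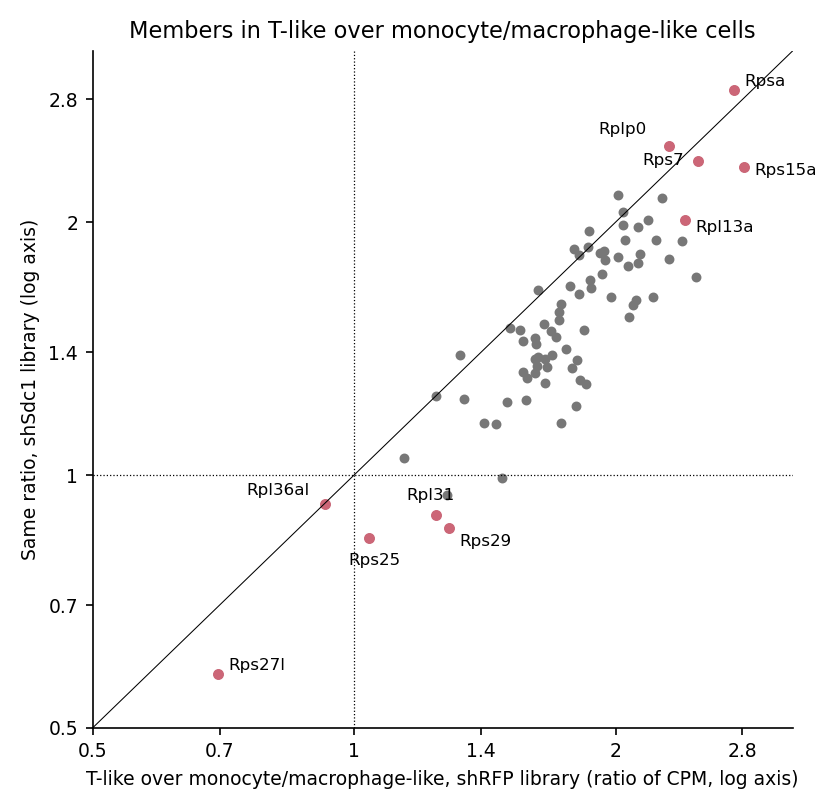
Ratio of CPM in T-like over monocyte/macrophage-like cells for each of the 82 members with at least 50 UMIs in each cell group and library, shRFP on the x axis and shSdc1 on the y axis, both log axes, with lines at 1 and at equal ratios. Most points lie above 1 on both axes, Rpsa (ratios of 2.74 and 2.88) is at the upper right and Rps27l (0.697 and 0.580) is at the lower left.

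Other genes of translation differed by the list they were placed in. Of 16 genes for elongation factors and further TOP mRNAs, 15 in shRFP and 16 in shSdc1 were called higher in T-like cells. Their medians were 0.87 and 0.85 (log2). This list also held the initiation factor genes Eif3e, Eif3f, Eif3h, Eif3k and Eif4b. Eef1a1, which brings aminoacyl-tRNA to the ribosome, had 7473 CPM in T-like and 4181 in monocyte/macrophage-like cells of shRFP, and 6193 and 3409 in shSdc1. The separate list of 15 other genes of translation initiation and its control showed no such shift, with medians of -0.00 and -0.03. Ribosome biogenesis genes lay between, with 0.47 and 0.48. The 70 and 72 mitochondrial ribosomal protein genes measured were near 0, with 0.13 and 0.04. Proliferation genes had medians of 1.87 and 1.5 over 16 genes, and their part in the difference was not tested.

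Near copies divided the members' levels differently in each cell group. Rps27l is a p53-regulated near copy of the small-subunit gene Rps27, and its share of the pair's UMIs was 24.3% in shRFP and 28.1% in shSdc1 in monocyte/macrophage-like cells, and 8.58% and 10.7% in T-like cells. Naive-like T cells had 11 of 551 and 7 of 317 pair UMIs from Rps27l, 1.996% (interval 1.001 to 3.54) and 2.21% (0.892 to 4.50). CD8-like cells had 15.4% and 13.2%, and regulatory cells 11.9% and 8.48%. Migratory DC-like cells were highest of the named groups with 33.8% and 35.03%. Among the monocyte/macrophage-like clusters it ran from 10.2% in shRFP and 14.4% in shSdc1 in cluster 5 (led by Hp and Chil3) to 37.1% in cluster 1 (led by Ccl8, Apoe and C1qa) in shRFP and 33.1% in cluster 2 (led by Ctsk and Gdf15) in shSdc1. Cluster 1 had 27.8% in shSdc1 and cluster 2 had 28.2% in shRFP. No 60-base stretch of the last 300 bases of Rps27l occurred in another measured gene. Rps27 and its retrogene Rps27rt did share such stretches (100% of those of Rps27), so reads of that pair may have been lost or split by the counting, and the level of Rps27 is uncertain.

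**Figure D3:**
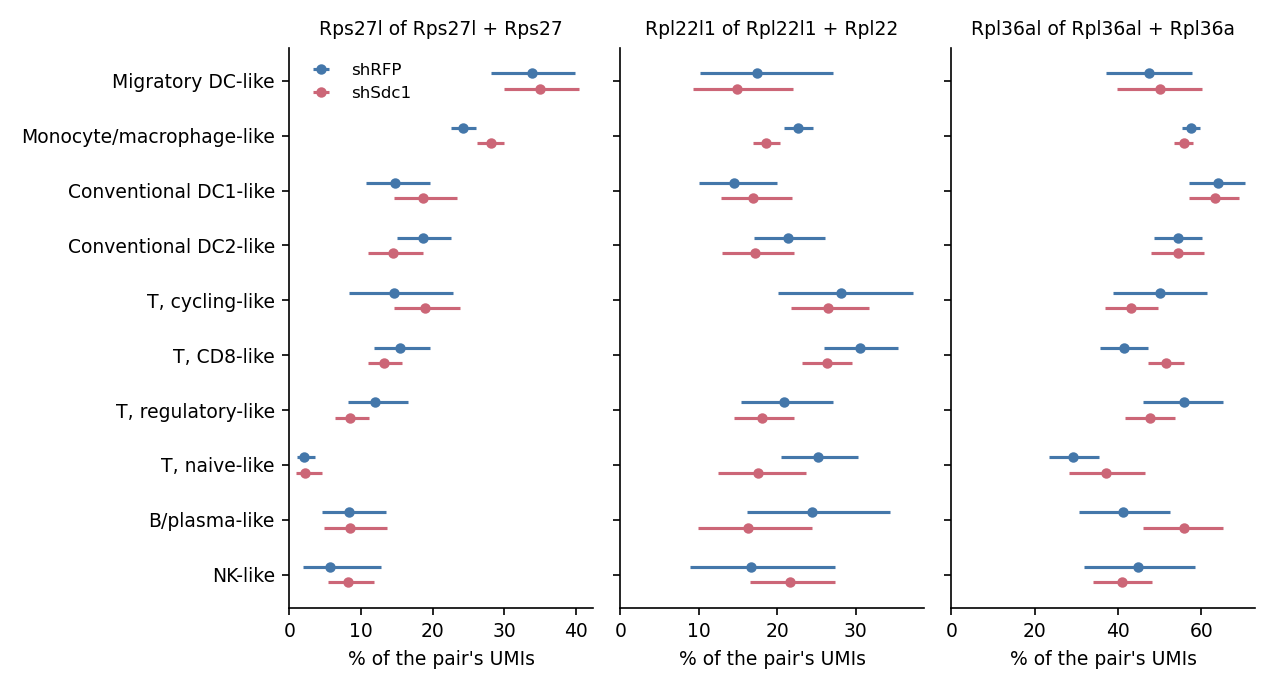
Percent of the pair's UMIs that came from the near copy (x axis) in each cell group (rows), for 3 pairs of genes (panels), 1 point per library with exact 95% binomial intervals for counting error. Rps27l reaches 33.8% and 35.03% of its pair in migratory DC-like cells and 1.996% and 2.21% in naive-like T cells.

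The other pairs varied less. Rpl22l1, the near copy of Rpl22 (a large-subunit protein with a known role in T cell development), made 26.1% and 23.5% of its pair in T-like cells and 22.7% and 18.5% in monocyte/macrophage-like cells, with 30.5% and 26.3% in CD8-like cells. Rpl36al, an intronless copy of the X-linked Rpl36a, made 57.5% and 55.8% in monocyte/macrophage-like, 40.4% and 47.7% in T-like and 29.1% and 37.1% in naive-like T cells. Both genes of that pair share stretches of their last 300 bases with measured pseudogenes or predicted genes, 97.1% for Rpl36a and 61.4% for Rpl36al, so these values are uncertain. In all, 10 of the 88 members had at least 50% of their 3′ stretches in another measured gene: Rpl9, Rpl10, Rpl35, Rpl36a, Rpl36al, Rpl41, Rps10, Rps18, Rps27 and Rps27rt.

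Between the libraries as a whole, the share of ribosomal protein UMIs was 14.4% in shRFP and 15.4% in shSdc1, a ratio of 1.07 (1.066 to 1.073). No member was called in either direction among 84, where 28.3% of 9298 genes were called higher and 11.3% lower. These shares count every gene with at least 50 UMIs, while 81 members had at least 2000 in the clustered cells. Genes with few UMIs pass the fold more easily by counting error, and no share for genes of like abundance was computed. The contrast thus does not show that members were steadier. The same limit holds for the other comparisons of the libraries. The median log2 ratio of the members was 0.10 and that of all genes was 0.13; scaling by TMM or by median of ratios moved all genes by -0.15 and -0.14, and then the members' median was -0.05 and -0.04. The stalk protein Rplp1 was nearest to the threshold, with 2434 and 2982 CPM and a ratio of 1.225 (1.193 to 1.258). Of 77 mitochondrial ribosomal protein genes, which serve the separate ribosome of mitochondria, 12 were called higher and 1 lower.

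The overall ratio came with a different mix of cells. T-like cells numbered 1073 in shRFP and 1764 in shSdc1, and monocyte/macrophage-like cells 2381 and 2201. The mix was then exchanged, with each cluster weighted by its part of the library's UMIs and not of its cells. With the UMI mix of shRFP and the within-group shares of shSdc1, the overall share was 14.4%, 0.999 times that of shRFP. With the UMI mix of shSdc1 and the shares of shRFP it was 15.3%, 1.06 times. The barcodes below the gene minimum, 530 and 276, held 21.3% and 13.7% ribosomal protein UMIs, and 46.0% and 27.5% of them had a UMI from a T cell marker gene. The gene minimum thus took out more barcodes, richer in ribosomal protein UMIs, from shRFP than from shSdc1.

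In monocyte/macrophage-like cells the summed share was 12.0% in shRFP and 12.3% in shSdc1, a ratio of 1.03 (1.02 to 1.04), and single members went both ways. Of 84 members, 5 were called higher and 1 was lower, where 23.3% of 6931 genes were higher and 17.7% lower. With TMM scaling the split was 0 higher and 2 lower, and with median of ratios, which moved all genes by -0.11 (log2), 0 higher and 4 lower. The share of all genes called under these scalings was not recorded. By CPM no member reached 1.5-fold, where 9.78% of genes were that much higher and 7.69% lower. The stalk of the large subunit, which recruits elongation factors, held the widest contrast. Its base Rplp0 had 2919 CPM in shRFP and 2210 in shSdc1, a ratio of 0.757 (0.727 to 0.789), while its tip Rplp1 had 2131 and 2796 CPM, a ratio of 1.31 (1.26 to 1.37). The other tip protein, Rplp2, had 1145 and 1241 CPM (1.08), and Rpl12, which sits beside the base, had 1417 and 1634 (1.15). Rplp0 stayed lower under each scaling tried, with 0.717 and 0.700 after TMM and median of ratios, whereas Rplp1 was not called under those 2.

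The other 4 called members were large-subunit Rpl23a, at the exit tunnel, with 637 and 830 CPM (1.30), its neighbor Rpl31 with 429 and 553 (1.29), Rpl37a with 1373 and 1745 (1.27), and small-subunit Rps12 with 1637 and 2060 (1.26). Near-identical pseudogenes not in the count table exist for the 3′ ends of Rpl23a, Rps12 and Rplp1 (80.1%, 89.2% and 61.4% of 60-base stretches), and none for Rplp0, Rpsa or Rpl31. How reads that match both were counted is stated in no source used here.

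The 4 clusters within these cells had changed their cell numbers: cluster 1 had 382 cells in shRFP and 1097 in shSdc1, cluster 2 had 683 and 726, cluster 4 (led by Cxcl3 and Il1a) had 909 and 286, and cluster 5 had 407 and 92. With clusters weighted by their UMIs in shRFP, the shares of shSdc1 gave 11.7% (0.981 times). With the UMI weights of shSdc1, the shares of shRFP gave 12.5% (1.04 times). Within clusters 1, 2, 4 and 5 the ratio of Rplp0 was 0.807, 0.821, 0.639 and 0.791, below 1 in each. Rpsa was also below 1 in each, with 0.834, 0.823, 0.786 and 0.847. They were not alone in this, and Rpl3 ran from 0.734 to 0.867. Rps2, Rpl15, Rpl4, Rpl14, Rps3, Rps6, Rpl7, Rpl21, Rps16 and Rps15a were below 1 in each as well. The ratio of Rplp1 within clusters was 1.15, 1.05, 1.16 and 1.06, so it was called in none of the clusters and reached 1.31 in their sum. Rpl23a was 1.17 or more in all 4, and up to 1.401. Rpl37a, Rps21, Rps27, Rps12, Rps27rt, Rps29, Rpl37, Rps28, Rpl36 and Rpl17 were above 1 in all 4 too. In T-like cells, where most members were below 1, Rplp0 had 0.809. It had 0.935 in NK-like cells, with an interval of 0.796 to 1.10, and 1.08 in B/plasma-like cells. Cluster 3 had 0.755 for Rplp0 and 1.35 for Rplp1.

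Members with short transcripts tended to the higher side in monocyte/macrophage-like cells. The Spearman correlation of transcript length with log2 ratio was -0.49 over 84 members, and the 42 shorter ones had a median log2 ratio of 0.13 against 0.01 for the 42 longer. It was -0.42, -0.49, -0.45 and -0.56 in clusters 1, 2, 4 and 5, and -0.46 in cluster 3. In T-like cells it was 0.07 over 83 members and in NK-like cells -0.04 over 80. Genes outside the set with at least 1000 UMIs and transcripts up to 2606 bases, the longest of a member, were compared too. They gave -0.27 in monocyte/macrophage-like cells (369 genes), -0.30 over all cells (833) and -0.33 in T-like cells (123). With at least 50 UMIs and any length, genes outside the set gave values near 0. These were -0.04 in monocyte/macrophage-like cells (6843 genes), 0.04 over all cells (9208) and 0.08 in T-like cells (4889). These values describe genes measured in the same 2 libraries, and transcript lengths from the annotation (345 to 2606 bases, GENCODE M21) may not be the isoform a cell uses. In these cells stress genes summed to 17663 CPM in shRFP and 11290 in shSdc1, and whether RNA quality moved with length was not tested.

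**Figure D4:**
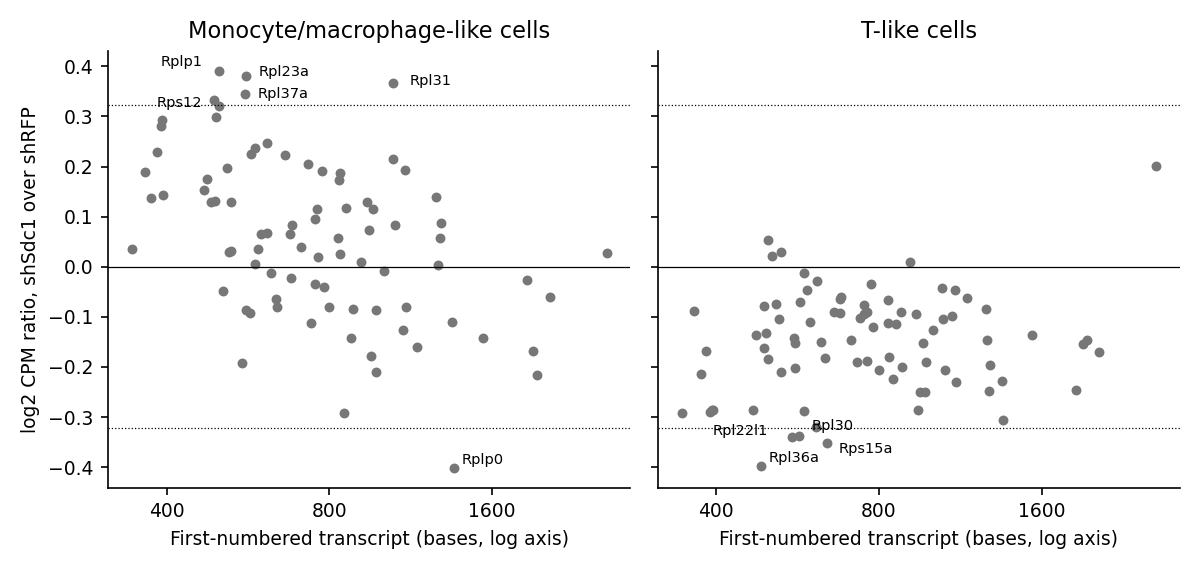
Log2 ratio of CPM, shSdc1 over shRFP, against the length in bases (log axis) of the first-numbered GENCODE transcript for each member, with dotted lines at the calling thresholds, in monocyte/macrophage-like and in T-like cells. Shorter members lie higher in monocyte/macrophage-like cells (Spearman -0.49, 84 members) and no slope is seen in T-like cells (0.07, 83 members).

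In T-like cells ribosomal protein mRNA took a lower share in shSdc1, with a share of 21.7% in shRFP and 19.4% in shSdc1 and a ratio of 0.897 (0.891 to 0.904). Of 83 members, 78 had a log2 ratio below 0, and the median was -0.15 beside 0.07 over all 4976 genes tested. None was called higher and 4 were called lower, where 22.4% of genes were higher and 12.4% lower. Scaling by the UMIs outside the set, TMM and median of ratios gave 13, 9 and 13 lower and none higher. These scalings moved all genes by -0.04, -0.03 and -0.07 (log2), and the share of all genes called under them was not recorded. The 4 called by CPM were Rps15a with 3824 and 2999 CPM (0.784), Rpl30 with 2261 and 1788 (0.791), Rpl36a with 791 and 601 (0.759) and Rpl22l1 with 488 and 386 (0.790). Rps15a and Rpl30 encode widely expressed core proteins of the small and the large subunit. Rps27l was on the other side, with 203 and 210 CPM, a ratio of 1.04 (0.826 to 1.31).

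Naive-like cells differed in number and in content between the libraries. They made up 31.2% of T-like cells in shRFP (335 of 1073; interval 28.5 to 34.1) and 12.8% in shSdc1 (226 of 1764; 11.3 to 14.5). Their ribosomal protein share was 31.8% and 26.6%, a ratio of 0.838 (0.825 to 0.852). Without them, T-like cells held 18.8% in both libraries, a ratio of 1.0001, and no member was called. CD8-like cells had a ratio of 0.958 (0.947 to 0.969), regulatory cells 1.02 (1.007 to 1.04) and cycling cells 1.07. The UMI mix of sub-clusters of shRFP with the shares of shSdc1 gave 20.5% (0.945 times), and the reverse gave 19.99% (0.923 times).

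Per cell, the naive-like sub-cluster had a median of 33.3% in shRFP, with quartiles of 27.5% and 37.1%, and of 25.5% in shSdc1, with quartiles of 19.6% and 31.8%. The distributions overlapped. Cells above 30% made up 65.4% in shRFP (219 of 335) and 34.5% in shSdc1 (78 of 226), and at most 6.08% in CD8-like, regulatory and cycling T cells of either library. Among members in the naive-like cells, 30 of 81 were called lower and none was higher, where 23.1% of 553 genes were lower and 24.4% higher. The median log2 ratio was -0.26 against -0.01 over all genes. Rpl35 at the exit tunnel was lowest (1277 and 758 CPM, 0.594), followed by Rpl22l1 (0.603), Rps25 (0.631), Rpl36a (0.635) and Rplp0 with 9082 and 5954 CPM (0.656). Rps12 did not share the shift, with 3974 and 4007 CPM (1.008).

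**Figure D5:**
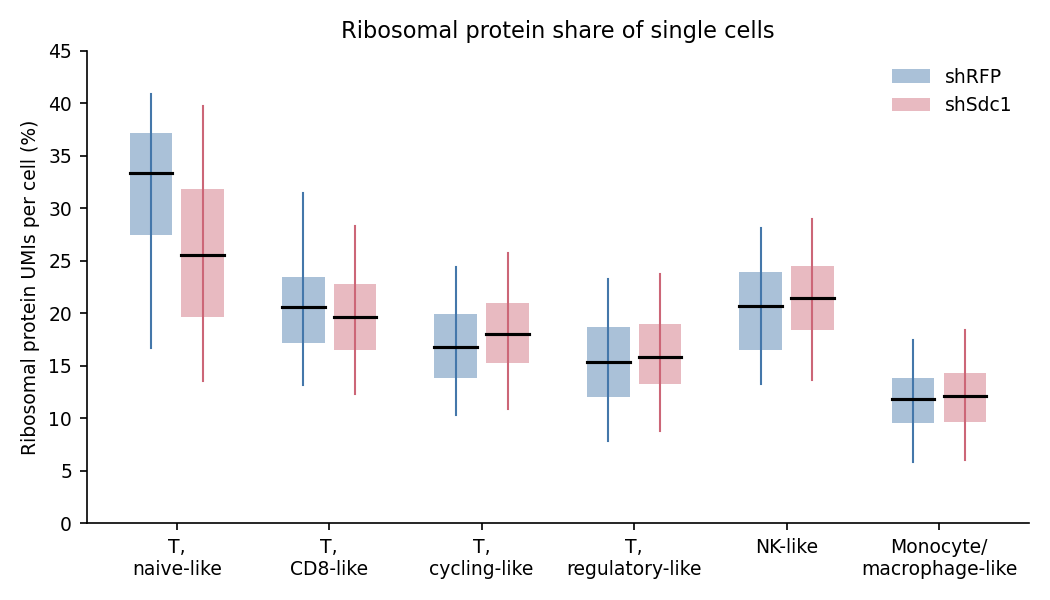
Share of UMIs from the 88 genes in single cells (percent, y axis) for T-like sub-clusters, NK-like and monocyte/macrophage-like cells, by library, with boxes at the quartiles, a bar at the median and thin lines from the 5th to the 95th percentile. The naive-like medians are 33.3% in shRFP and 25.5% in shSdc1, and those of the regulatory cells are 15.4% and 15.8%.

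Other genes of the naive-like sub-cluster differed as well. Its naive T cell markers summed to 4453 CPM in shRFP and 2332 in shSdc1, CD8 effector markers to 2642 and 4595, proliferation genes to 678 and 1155, monocyte markers to 734 and 1324 and macrophage markers to 112 and 374. Melanoma, fibroblast, red cell and keratinocyte markers had 1, 0, 0 and 0 UMIs in shRFP and none in shSdc1. Cells were then grouped by the UMIs of 8 naive marker genes they held. With 0 to 1 such UMIs the ribosomal protein share was 30.9% in shRFP (176 cells) and 25.4% in shSdc1 (172), with 2 to 3 it was 32.5% (126) and 28.9% (42), and with 4 or more it was 33.6% (33) and 32.9% (12). The gap between libraries was narrowest among cells with most naive marker UMIs, where 12 cells carry the shSdc1 value. Median UMIs per cell in shRFP and shSdc1 were 328.5 and 339 with 0 to 1 marker UMIs and 357 and 355 with 2 to 3. With 4 or more they were 374 and 461.5, so the grouping also sorted cells by depth. The same 8 markers had named the sub-cluster, and the cause of the gap was not tested.

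The remaining groups held fewer cells. NK-like cells had a ratio of 1.04 (1.014 to 1.07), with 6 members called higher and 1 lower of 80, where 19.4% of 505 genes were higher and 19.6% lower. Conventional DC 2-like cells had the highest ratio of the named cell groups, 1.10 (1.08 to 1.12), with 5 higher and none lower, where 17.1% of genes were higher and 22.7% lower. B/plasma-like cells had a summed ratio of 0.936 (0.913 to 0.959) while the median per cell was higher in shSdc1, 25.7% against 22.5%. Of 78 members in them, 4 were higher and 12 lower, where 11.9% of 302 genes were higher and 41.1% lower. They numbered 116 and 84 cells. Cluster 5 of the monocyte/macrophage-like cells, with 92 cells in shSdc1, had 19 of 80 members higher and 3 lower, where 22.6% of 886 genes were higher and 26.7% lower.

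By role in the ribosome, no list moved as a unit between the libraries in the sum of all cells. None of the 6 genes of the decoding center and mRNA path (among them Rps2, Rps3, Rps9, Rps23 and Fau), of the 2 proteins of the 5S RNA particle (Rpl5 and Rpl11, which also bind the p53 regulator Mdm2), of the 4 stalk genes or of the 7 exit-tunnel genes was called. In monocyte/macrophage-like cells the stalk had 1 higher and 1 lower, and the tunnel list had 2 higher (Rpl23a and Rpl31). The 16 genes mutated in Diamond-Blackfan anemia, a red cell failure caused by too little of a ribosomal protein, had 1 called, Rpl31, in monocyte/macrophage-like cells and none in T-like cells. The same separate list of 15 genes of translation initiation and its control, which lie outside the set, leaned lower in shSdc1. In all cells 4 were called lower (Eif4ebp1 at 0.665, Eif5 at 0.719, Eif4e at 0.753 and Eif4a1 at 0.757). Of these, Eif4ebp1 encodes an inhibitor of Eif4e and not an initiation factor. In monocyte/macrophage-like cells 6 were lower and 1 was higher. The background shares are those given above.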

How the data were processed

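Both 10x Genomics 3′ v3.1 single-cell libraries were analysed, each from pooled tumors. The authors deposited raw UMI counts per gene and barcode. The file headers name Cell Ranger 6.1.1, and the submitters' processing notes name mm10. No source used here states the annotation release or the treatment of reads with several matches. The gene and barcode name columns that were deposited hold no measurement. Kept barcodes had at least 200 genes and under 10% mitochondrial UMIs. Barcodes with the highest doublet scores (Scrublet, 0.8% per 1000 barcodes) were removed before clustering, because the automatic Scrublet cut marked 1 and 0 cells. Clusters came from scanpy 1.11.5 (2000 variable genes without ribosomal protein genes, 30 components, 15 neighbors, Leiden resolution 1). No correction for free RNA was made. CPM is UMIs per 1000000 UMIs of the group. A member was called at 1.25-fold when the libraries held at least 50 of its UMIs between them. This replaced a test, since each group was 1 library. Intervals are exact binomial (shares) or conditional binomial (ratios), at 95%. The calculation was tested on simulated data. Members named are the 10 most abundant, those with near copies, and those called or at the extremes of each comparison. The members and gene lists were chosen with earlier results of these data known. Alternatives were other filters, doublet treatments, scalings (TMM by edgeR 4.0.16), weights, resolutions and thinning to 300 UMIs per cell. Values of a few genes are not reported here.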

Additional observations from a re-analysis of the deposited data

Results flagged for a closer look

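The share of ribosomal protein UMIs was lower in shSdc1 in some cell groups and higher in others, and the contrasts given here are not all such pairs. The ratio of shSdc1 to shRFP was 0.897 in T-like and 1.03 in monocyte/macrophage-like cells. It was 0.936 in B/plasma-like cells, against the same 1.03. Inside the T-like cells it was 0.838 in the naive-like and 1.02 in the regulatory sub-cluster, and 0.958 in the CD8-like sub-cluster against the same 1.02. None of these differences was tested, since each group was 1 library. T-like cells without the naive-like sub-cluster had a ratio of 1.0001.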

How the results depend on the processing

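The overall ratio of ribosomal protein shares (shSdc1 over shRFP) was 1.09 with at least 500 genes per barcode, 1.08 under 5% mitochondrial UMIs, 1.03 as a mean over cells, 1.05 with no barcode filter, 1.09 without the naive-like cells and 0.992, on the other side of 1, with clusters weighted alike. In monocyte/macrophage-like cells it was 1.02 at 500 genes, with more doublets removed and as a mean over cells, 1.04 as a median over members, 1.004 at resolution 0.5, 1.02 at 500 genes with classes unchanged, 1.012 with clusters 3 and 12 joined, and 0.987 with clusters weighted alike. In T-like cells it was 0.851 as a mean over cells, 0.904 as a median over members and 0.951 with clusters weighted alike. It was 0.847 thinned, 0.9997 at 500 genes with classes unchanged and 1.0001 without the naive-like cells. It was 1.05 at 500 genes and 1.06 at resolution 0.5, where by construction the T-like class held the Foxp3-led cluster alone. At 500 genes the monocyte/macrophage-like class changed too. A cluster led by Ctsk and Gdf15 (299 cells in shRFP, 301 in shSdc1) was unnamed, and an interferon-gene-led cluster joined the class. Ratios by class at 500 genes and at resolution 0.5 thus compare other cell groups than the main ones, except with classes unchanged. T-like over monocyte/macrophage-like was, in shRFP and shSdc1, 1.39 and 1.44 at 500 genes, 1.79 and 1.55 under 5% mitochondrial UMIs, 1.78 and 1.503 as a median over members, 1.33 and 1.41 at resolution 0.5, 1.94 and 1.59 thinned, 1.58 and 1.55 at 500 genes with classes unchanged, 1.57 and 1.52 without naive-like cells, 1.74 and 1.54 with clusters 3 and 12 joined, and 1.90 in shRFP as a mean over cells. Members called over all cells were 2 at 500 genes and 2 with no UMI minimum. In monocyte/macrophage-like cells they were 2 with TMM and 3 with clusters joined. In T-like cells they were 1 at 500 genes, 13 with UMIs outside the set, 9 with TMM, 13 with median of ratios and 0 without naive-like cells. The share of all genes called under these alternatives was not recorded. Other causes were not tested. The alternatives with no barcode filter, classes unchanged, no naive-like cells, joined clusters and no shared barcodes were chosen after seeing the data. Thinning left out 86 and 142 monocyte/macrophage-like and 232 and 313 T-like cells. No paired analysis was possible because each group was 1 library. Depth limits the small groups most: intervals for single members in NK-like cells span 1.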

Other observations

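Rack1 and the barcodes outside the filter gave further values. Rack1, a small-subunit scaffold, had 1741 CPM in shRFP and 1776 in shSdc1 over all kept cells. Barcodes removed for mitochondrial UMIs, 46 and 74, held 9.39% and 9.60% ribosomal protein UMIs, less than the kept cells. Barcodes removed by doublet score held 14.5% and 15.8%. Kept cells without any ribosomal protein UMI numbered 5 in shRFP and 4 in shSdc1.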
